A study of Mus musculus with 8 samples.

Results

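The Cd209 family of the mouse is a set of C-type lectins, 7 of which (Cd209a, Cd209b, Cd209c, Cd209d, Cd209e, Cd209f and Cd209g) had a row in the count table of 24537 genes. The members were taken by gene symbol, and the family itself was chosen by its higher counts in the anti-LIF arm of these same libraries, so the difference between the arms is given below as a description, and where the members past the threshold of the fit across all genes are counted, nothing is read from the count. RNA came from EpCAM+ pancreatic tumour cells, isolated by flow cytometry from FVB/NJ mice with 1 library per mouse, in 4 mice given gemcitabine and an antibody that neutralises LIF (leukaemia inhibitory factor, a cytokine of the IL-6 family) and 4 mice given gemcitabine and control IgG. All 8 mice had the same genotype, with conditional tumour-driving alleles and a Rosa26LSL-Luc allele that are recombined by Pdx1-Cre, a Cre driven by the Pdx1 promoter of the pancreatic lineage. Treatment began at 42 to 43 days of age, with 50 mg/kg gemcitabine on days 1 and 4 and 25 mg/kg antibody on days 1, 3 and 5, and whole tumours were dissected on day 6. No group was without gemcitabine. Where 4 values are listed for an arm, anti-LIF values run from KPCL-PCC_227_GA through KPCL-PCC_310_GA and then KPCL-PCC_354_GA to KPCL-PCC_391_GA, and IgG values run from KPCL-PCC_203_G through KPCL-PCC_343_G and then KPCL-PCC_345_G to KPCL-PCC_393_G.

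The Cd209 lectins are mostly type II membrane proteins whose calcium-dependent carbohydrate recognition domain binds mannose- and fucose-rich glycans on microbes and on host cells. Humans have DC-SIGN (CD209), known from dendritic cells and macrophages, and its relative CLEC4M, whereas the mouse locus has expanded into a cluster of related genes. The best studied mouse members are Cd209a, called mouse DC-SIGN or SIGNR5 and known from monocyte-derived dendritic cells, and Cd209b, called SIGNR1 and known from marginal zone and lymph node macrophages that take up bacterial polysaccharide. Pancreatic epithelium is not a known source of these lectins, whereas tissue macrophages are.

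Total counts in genes ran from 15135457 to 18972281 per library, and 14711 genes passed the filter on low counts, all 7 members among them. Across all tested genes, 2303 were higher and 2428 were lower with anti-LIF (edgeR's quasi-likelihood test, Benjamini-Hochberg adjusted p under 0.05), and the median log2 fold change was -0.0063. Epcam, the surface protein used for the sort, had 194 to 353 counts per 1000000 (CPM) in the anti-LIF libraries and 479 to 664 CPM in the IgG libraries. The libraries also carried leukocyte transcripts at similar or higher levels: Csf1r, the receptor that macrophages depend on, had 1968 to 4019 CPM in the anti-LIF libraries and 775 to 1106 CPM in the IgG libraries. RNA in these sorted samples therefore included the markers of macrophages as well as those of tumour epithelium, and for any such marker, the Cd209 genes included, more cells and more RNA per cell cannot be told apart.

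The members lie in 1 cluster on chromosome 8, which spans 394 kb between positions 3743395 and 4137707 (mm10, coordinates of the count table). Cd209a (3743395 to 3748984), Cd209e (3847973 to 3854286), Cd209d (3871824 to 3878499), Cd209b (3917655 to 3926841) and Cd209c (3940222 to 3946863) follow each other on the minus strand. A gap of 155929 bases separates Cd209c from Cd209f (4102793 to 4105764, minus strand), and Cd209g (4134736 to 4137707, plus strand) starts 28971 bases beyond the end of Cd209f in the opposite orientation. Cd209f and Cd209g are thus an inverted pair whose start sites face each other across that interval.

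The sequences before the start sites of Cd209f and Cd209g are shown because this pair stood apart from the other members in the counts and the stretches are near copies of each other. Both are from RefSeq on GRCm38.p6, 5′ to 3′ on the strand of the gene, 250 bases ending at the base before the annotated start, at chr8:4105765-4106014 (minus strand) for Cd209f and chr8:4134486-4134735 (plus strand) for Cd209g. Capitals mark the longest run within these windows that is identical in the pair.
Cd209f: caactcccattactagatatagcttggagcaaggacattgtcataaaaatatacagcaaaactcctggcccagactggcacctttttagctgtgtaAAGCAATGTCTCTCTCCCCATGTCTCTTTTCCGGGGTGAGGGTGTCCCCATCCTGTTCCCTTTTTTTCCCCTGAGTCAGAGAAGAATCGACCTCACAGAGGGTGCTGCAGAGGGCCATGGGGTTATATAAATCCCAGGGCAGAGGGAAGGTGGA
Cd209g: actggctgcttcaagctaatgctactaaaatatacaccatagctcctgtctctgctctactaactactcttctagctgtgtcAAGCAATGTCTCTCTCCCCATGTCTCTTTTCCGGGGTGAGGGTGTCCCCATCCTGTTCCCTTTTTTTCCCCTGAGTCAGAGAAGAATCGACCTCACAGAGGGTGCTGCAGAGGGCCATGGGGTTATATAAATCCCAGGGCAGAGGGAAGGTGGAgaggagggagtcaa

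Within these windows the identical run is 154 bases long. It reaches the last base of the Cd209f window, next to the annotated start, and ends 14 bases before the start of Cd209g. Bases past the start of Cd209f were not compared, so the full length of the run was not measured. Among the other 20 pairs of members, the longest identical run in the same window was 7 to 12 bases. A TATAAA element, searched on the strand of the gene after the sequences had been seen, begins 29 bases before the start in Cd209f and 43 bases before it in Cd209g, inside the identical run. It was present in 7.59% of the 32851 windows of this length in the RefSeq table and in 0 of the 5 windows of the other members. Motifs of myeloid and cytokine-responsive factors were searched on both strands: the PU.1 motif GAGGAAGT and its inner part GGAAGT, the STAT motif TTCNNNGAA and its form with a 4-base spacer, the C/EBP motif TTGCNNAA and the interferon-response core GAAANNGAAA. None of these motifs occurred in the Cd209f or Cd209g window. The short core GGAA alone, held by 93.45% of all windows, was in the window of every member, with 4 matches each in Cd209f and Cd209g. GGAAGT occurred in the windows of Cd209a and Cd209d (19.7% of all windows), the STAT form with the 4-base spacer in that of Cd209e (5.85%) and TTGCNNAA in that of Cd209b (9.56%). GAGGAAGT, TTCNNNGAA and GAAANNGAAA, held by 2.44%, 7.02% and 2.98% of all windows, were in 0 of the 7. These are matches of letters and were not tested as binding sites.

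The transcripts of Cd209f and Cd209g are close copies as well. Over their best local alignment they shared 1063 of 1159 bases, an identity of 91.7% (transcripts of GENCODE release 21 for mouse). Other pairs of members aligned over shorter or more divergent stretches, at 64.0% to 76.2% identity. Of all 50-base words in Cd209f, 38.2% were also in Cd209g, and 29.2% of its 100-base words were. By contrast 0 of the words of 36 to 100 bases in Cd209a, Cd209b, Cd209c, Cd209d or Cd209e occurred in another member. Neither the read length nor the handling of reads with several positions is stated in the sources used, so the split of counts between Cd209f and Cd209g is uncertain, while their sum and the counts of the other 5 members share no words of these lengths within the family.

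All 7 members had higher counts in every anti-LIF library than in any IgG library once scaled to library size. Against a background of 15.7% of tested genes called higher, 16.5% called lower and 17.6% with all 4 anti-LIF libraries above all 4 IgG libraries, 7 of 7 members were called higher and 7 of 7 did not overlap, which follows from how the family was chosen. With 1 library left out, Cd209e fell short of the threshold in 5 of the 8 fits (without KPCL-PCC_343_G, KPCL-PCC_345_G, KPCL-PCC_393_G, KPCL-PCC_227_GA or KPCL-PCC_354_GA) and Cd209c in 2 (without KPCL-PCC_343_G or KPCL-PCC_393_G). The arms differed unevenly among the members, from 3.25-fold for Cd209e to 47.4-fold for Cd209g. The median log2 fold change of the members was 2.54.

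**Figure D1:**
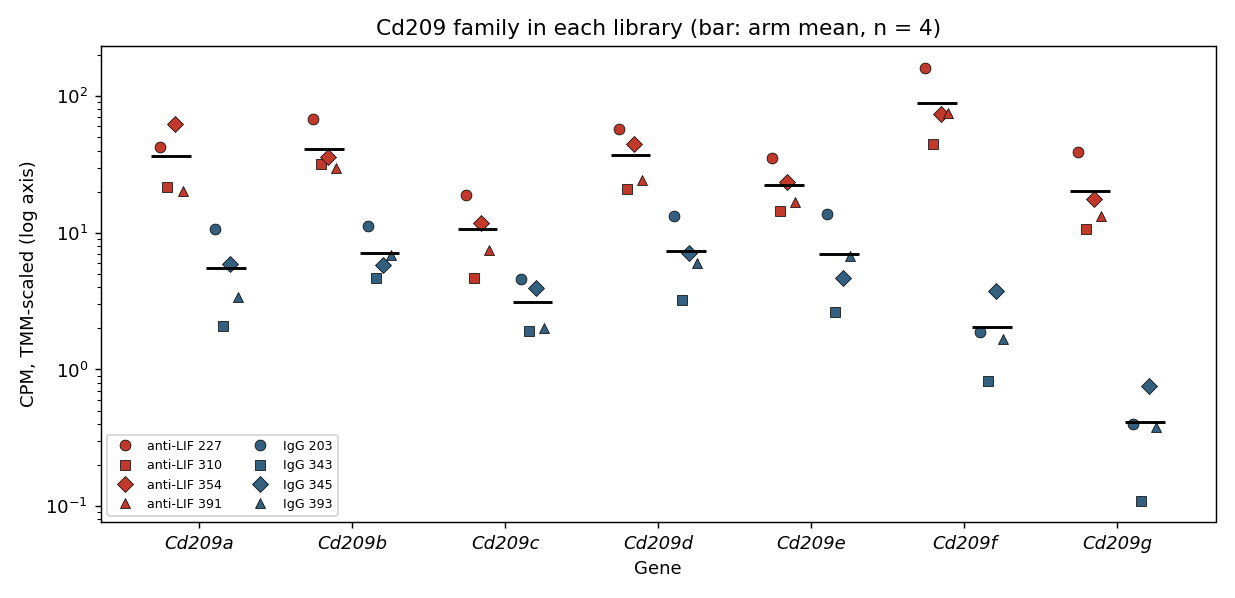
CPM on a log axis for each Cd209 gene (x axis) in each library, with anti-LIF in red to the left of IgG in blue and a bar at each arm's mean (n = 4 libraries each). Within every gene the 4 red points lie above the 4 blue points, and the arms are farthest apart for Cd209f and Cd209g.

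Cd209f (SIGNR8) carried the most counts of the family in the anti-LIF arm, with 2535, 664, 1200 and 1118 counts in the anti-LIF libraries, against 33, 15, 74 and 31 counts in the IgG libraries. Scaled to library size it averaged 88.9 ± 50.7 CPM in anti-LIF libraries and 2.04 ± 1.23 CPM in IgG libraries (SD, n = 4 each), a log2 fold change of 5.43 ± 0.54 (SE). The lowest anti-LIF library (44.3 CPM) lay far above the highest IgG library (3.75 CPM). Only 7 of the 14711 tested genes had a higher log2 fold change than Cd209f.

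Cd209g (SIGNR7) followed the same libraries at lower counts. It had 608, 160, 286 and 197 counts in the anti-LIF libraries, against 7, 2, 15 and 7 counts in the IgG libraries. The means were 20.1 ± 12.8 CPM with anti-LIF and 0.412 ± 0.267 CPM with IgG, a log2 fold change of 5.57 ± 0.59 (SE). With 2 counts in KPCL-PCC_343_G, the low end of the IgG range rested on very few reads. Counts of Cd209g were 0.224 ± 0.032 of those of Cd209f with anti-LIF and 0.193 ± 0.041 with IgG, so the ratio between the close copies differed by less than its spread between libraries.

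Cd209a, mouse DC-SIGN, was led by a different anti-LIF library from the other members. It had 42.4, 21.7, 62.7 and 20.2 CPM in the anti-LIF libraries, against 10.6, 2.09, 5.93 and 3.41 CPM in the IgG libraries. KPCL-PCC_354_GA was the highest, where all other members peaked in KPCL-PCC_227_GA, and the arms did not overlap. The log2 fold change was 2.74 ± 0.55 (SE), or 6.68-fold.

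Cd209b, SIGNR1, had 67.8, 31.9, 35.7 and 29.6 CPM in the anti-LIF libraries, against 11.2, 4.67, 5.77 and 6.86 CPM in the IgG libraries. KPCL-PCC_227_GA stood apart from the other anti-LIF libraries, which lay close together. The log2 fold change was 2.54 ± 0.35 (SE), which was the smallest standard error in the family.

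Cd209d, called SIGNR3 and known to recognise mycobacterial glycolipids, had 57.7, 21.03, 44.6 and 24.2 CPM in the anti-LIF libraries, against 13.2, 3.24, 7.14 and 6.00 CPM in the IgG libraries. The high anti-LIF libraries were KPCL-PCC_227_GA and KPCL-PCC_354_GA, and the arms did not overlap. Its log2 fold change was 2.32 ± 0.46 (SE).

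Cd209c (SIGNR2) and Cd209e (SIGNR4) were the members with the smallest differences. Cd209c had 294, 70, 191 and 112 counts in the anti-LIF libraries, against 80, 35, 78 and 37 counts in the IgG libraries, a log2 fold change of 1.78 ± 0.46 (SE). Its lowest anti-LIF library, at 4.67 CPM, was only just above its highest IgG library, at 4.59 CPM. Cd209e had 35.6, 14.6, 23.4 and 16.7 CPM in the anti-LIF libraries, against 13.7, 2.64, 4.71 and 6.76 CPM in the IgG libraries, a log2 fold change of 1.70 ± 0.48 (SE). Here too the lowest anti-LIF library (KPCL-PCC_310_GA) was close to the highest IgG library (KPCL-PCC_203_G).

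**Figure D2:**
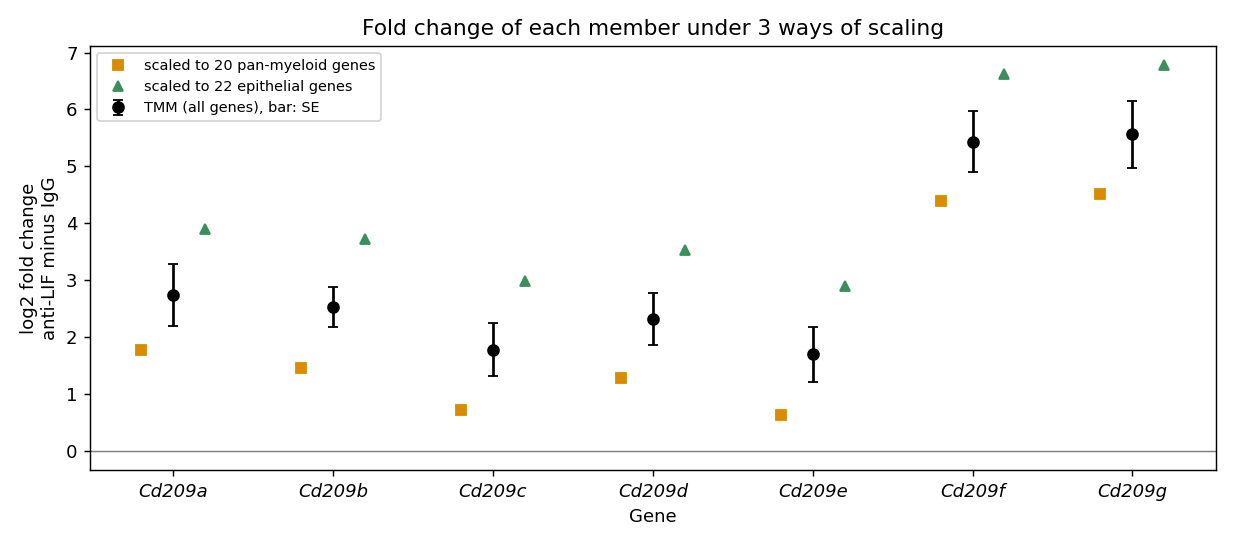
Log2 fold change (anti-LIF minus IgG, y axis) of each Cd209 gene (x axis) from the edgeR fit with TMM scaling (circles, bar: SE), and the same with libraries scaled to 20 pan-myeloid genes (squares) or to 22 epithelial genes (triangles). Every value is above 0, and Cd209f and Cd209g are the highest under each scaling, at 5.43 and 5.57 under TMM scaling.

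Levels can be compared between genes per transcript length, in FPKM. In the anti-LIF arm Cd209f was highest at 59.9 ± 29.4 FPKM (SD, n = 4), followed by Cd209d at 32.3 ± 13.5, Cd209a at 18.9 ± 10.5, Cd209b at 15.5 ± 5.41, Cd209g at 13.8 ± 7.66, Cd209e at 9.56 ± 3.34 and Cd209c at 5.15 ± 2.62 FPKM. Cd209f was above Cd209d in each of the 4 libraries, yet the ranges of neighbouring genes in this order overlapped across libraries. The IgG arm had another order. There Cd209d was highest at 7.28 ± 4.36 FPKM, followed by Cd209e at 3.34 ± 2.42, Cd209a at 3.14 ± 2.23, Cd209b at 3.02 ± 1.30, Cd209c at 1.68 ± 0.758, Cd209f at 1.53 ± 0.883 and Cd209g at 0.318 ± 0.197 FPKM. All neighbours in that order overlapped except Cd209f and Cd209g. Cd209f was therefore first of 7 in anti-LIF libraries and sixth in IgG libraries.

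The make-up of the family differed between the arms. Cd209f and Cd209g together held 47.5%, 37.0%, 34.0% and 47.3% of the family's counts in the anti-LIF libraries, against 4.13%, 6.03%, 14.1% and 7.58% in the IgG libraries. The 95% Wilson interval was 32.6% to 35.4% in KPCL-PCC_354_GA, the lowest of its arm, and 11.6% to 17.0% in KPCL-PCC_345_G, the highest of its arm; such intervals cover counting error only. The shares of Cd209c, Cd209d and Cd209e were lower in every anti-LIF library than in any IgG library. Cd209c held 3.995 ± 0.597% of family counts with anti-LIF and 10.1 ± 2.65% with IgG, and Cd209e held 8.96 ± 0.594% with anti-LIF and 20.3 ± 5.25% with IgG. Cd209d held 14.3 ± 1.55% with anti-LIF and 22.3 ± 1.15% with IgG. The shares of Cd209a (10.03% to 23.2% with anti-LIF, 12.6% to 19.1% with IgG) and Cd209b (13.2% to 21.4% with anti-LIF, 18.0% to 30.1% with IgG) overlapped between the arms. Shares sum to the whole family, so a larger share of Cd209f lowers the others by construction.

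**Figure D3:**
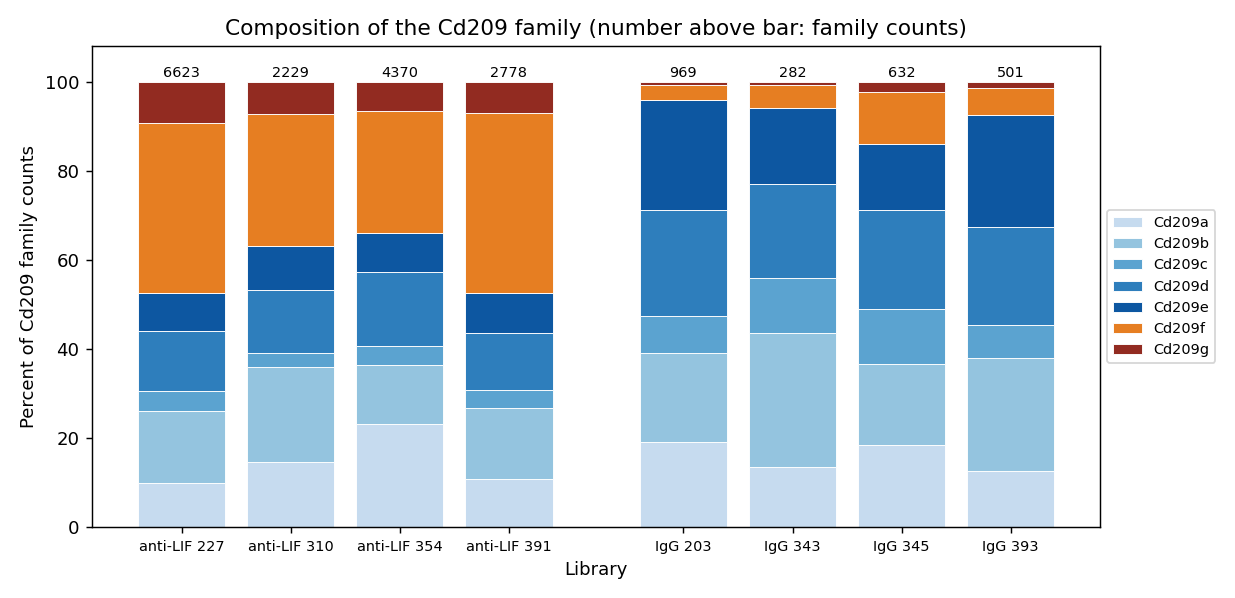
Percent of all Cd209 counts (y axis) held by each member in each library (x axis), with the 4 anti-LIF libraries on the left and the 4 IgG libraries on the right and the number of family counts above each bar. Cd209f and Cd209g (orange and dark red) take 34.0% to 47.5% of the bar in anti-LIF libraries and 4.13% to 14.1% in IgG libraries.

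Summed over the 7 members, the family had 257 ± 122 CPM in anti-LIF libraries (149 to 423) and 32.5 ± 16.8 CPM in IgG libraries (15.5 to 55.6), a ratio of 7.90. The 5 members Cd209a to Cd209e had 148 CPM with anti-LIF and 30.1 CPM with IgG, a ratio of 4.92, and the pair Cd209f and Cd209g had 109 CPM with anti-LIF and 2.45 CPM with IgG, a ratio of 44.5. Among IgG libraries, KPCL-PCC_203_G was highest for Cd209a to Cd209e, KPCL-PCC_345_G was highest for Cd209f and Cd209g, and KPCL-PCC_343_G was lowest for all 7.

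Markers of other cells moved with the arms, and their values belong beside these ratios. The 20 genes of a pan-myeloid list (such as Csf1r, Lyz2 and Tyrobp) made up 3.84%, 2.71%, 2.62% and 2.94% of counts in the anti-LIF libraries, against 1.63%, 1.57%, 1.94% and 1.62% in the IgG libraries. Those of the 22-gene epithelial list made up 0.209% to 0.416% of counts with anti-LIF and 0.682% to 0.815% with IgG. KPCL-PCC_227_GA, the library with the most Cd209 counts, also had the highest myeloid share and the lowest epithelial share.

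Per 1000 pan-myeloid counts, the family had 7.75 ± 2.28 counts in anti-LIF libraries (5.40 to 10.1) and 2.05 ± 1.14 in IgG libraries (1.03 to 3.68), a ratio of 3.78. The pair Cd209f and Cd209g had 4.41, 1.997, 3.42 and 2.95 in the anti-LIF libraries, against 0.152, 0.0622, 0.242 and 0.134 in the IgG libraries, a ratio of 21.7. Cd209a to Cd209e had 3.28 to 6.64 with anti-LIF and 0.969 to 3.53 with IgG, a ratio of 2.396, and here KPCL-PCC_203_G lay among the anti-LIF libraries. Relative to the myeloid list the 5 members thus overlapped between the arms while the pair did not. The list's sum leans on Lyz2, whose mean was 13510 of 32452.5 CPM with anti-LIF and 4177 of 16027.7 CPM with IgG. Lyz2 had a log2 fold change of 1.69, beside a list median of 0.80. A scale without Lyz2 was not tested.

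The 30 genes of a resident tissue macrophage list gave another scale, chosen after the values were seen. Per 1000 counts of that list, the pair had 3.17 to 4.82 counts with anti-LIF and 0.112 to 0.352 with IgG, a ratio of 18.5. The other 5 members had 4.81 to 7.80 with anti-LIF and 1.75 to 4.75 with IgG, a ratio of 2.08, so their arms came close but did not overlap on this scale. The whole fit was also scaled to the pan-myeloid list, which moved the median of all genes by -0.96 on the log2 scale. The members then had log2 fold changes from 0.63 (Cd209e) and 0.72 (Cd209c) to 4.39 (Cd209f) or above (Cd209g). Cd209e and Cd209c did not pass the threshold in that fit.

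**Figure D4:**
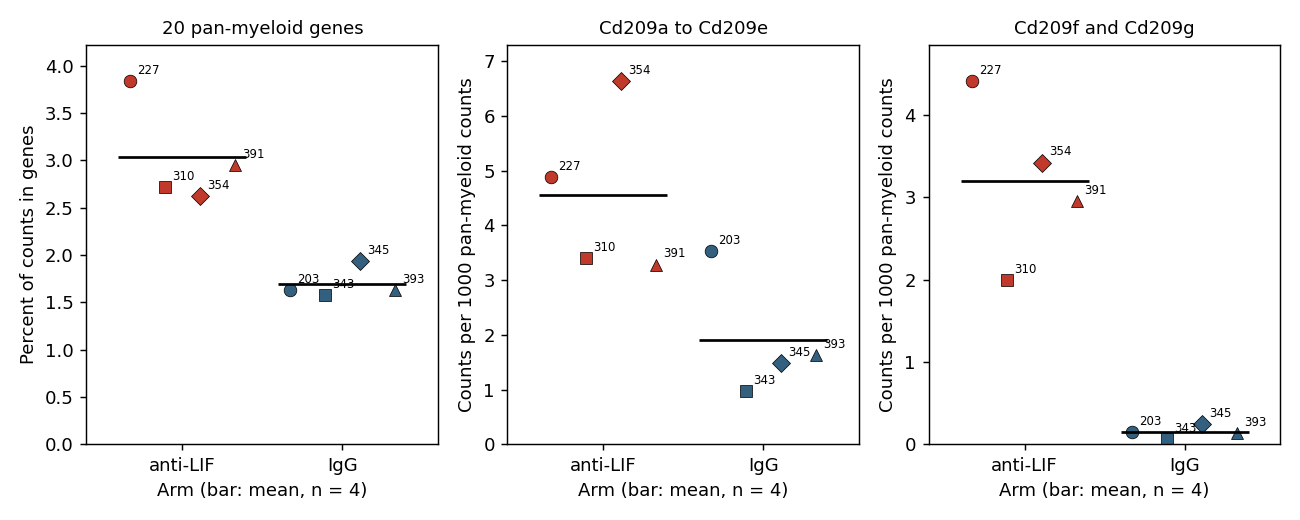
Left: the 20 pan-myeloid genes as a percent of counts in genes. Middle and right: counts of Cd209a to Cd209e and of Cd209f with Cd209g per 1000 pan-myeloid counts. Each point is 1 library, labelled with its number, with anti-LIF left of IgG and a bar at the mean (n = 4 each). Per myeloid count, the IgG library KPCL-PCC_203_G reaches the anti-LIF range for Cd209a to Cd209e (3.53 against 3.28 to 6.64), whereas for the pair the IgG points stay at or below 0.242.

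Within the arms the members varied together, and Cd209f and Cd209g were the closest pair. After each arm's mean was taken off, log2 CPM of Cd209f and Cd209g had a Pearson r of 0.98 over the 8 libraries, and those of Cd209d with Cd209e (0.94), Cd209b with Cd209e (0.93) and Cd209a with Cd209d (0.93) were the next highest. Cd209f varied least with Cd209e (0.55), Cd209b (0.57) and Cd209a (0.57). The members did not split cleanly, because Cd209c was at 0.82 with Cd209f and 0.83 with Cd209g. With the others, Cd209c was at 0.73 (Cd209e), 0.75 (Cd209b), 0.81 (Cd209a) and 0.89 (Cd209d). Cd209d was at 0.71 with Cd209f and 0.77 with Cd209g, and Cd209a was at 0.68 with Cd209b. These values describe 8 libraries that share depth, myeloid content and, for Cd209f and Cd209g, possibly reads.

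Among the genes outside the family whose level followed the summed family most closely within the arms were Oas1a (r = 0.99), an interferon-induced oligoadenylate synthetase, C6 (0.98), a complement component, Stat4 (0.98), a transcription factor of IL-12 signalling, and Ifi47 (0.98), an interferon-induced GTPase. With 8 libraries, 171 of 14704 candidates (1.16%) had an r of 0.9 or more, so this rank is a description. Oas1a, C6, Stat4 and Ifi47 were also higher with anti-LIF (edgeR adjusted p 0.00483, 0.00938, 0.00628 and 0.0044). For the pair Cd209f and Cd209g taken alone, a split chosen after the values were seen, Pid1 ranked first at 0.99 and the macrophage scavenger receptor Cd163 second at 0.98. Further genes of the resident macrophage list that were looked at lay at 0.94 (Lyve1), 0.88 (Timd4), 0.86 (Folr2), 0.85 (Mrc1), 0.84 (Fcna) and 0.80 (F13a1) for the pair. For Cd209a to Cd209e the same genes lay at 0.79 (Lyve1), 0.55 (Timd4), 0.91 (Folr2), 0.58 (Mrc1), 0.83 (Fcna) and 0.49 (F13a1). Cd163 lay at 0.72 for Cd209a to Cd209e. Folr2 thus followed Cd209a to Cd209e more closely than the pair. Other leukocyte markers were spread widely for the pair, with Csf1r at 0.90, Adgre1 at 0.70, Ccr2 at 0.58, Mgl2 at 0.37, Fcer2a at 0.27 and Ptprc at 0.07. For Cd209a to Cd209e they lay at 0.69 (Csf1r), 0.21 (Adgre1), 0.74 (Ccr2), 0.73 (Mgl2), 0.64 (Fcer2a) and -0.22 (Ptprc).

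Resident tissue macrophage genes had the highest median among the macrophage, dendritic cell and lectin lists. Of the 30 tested genes, 22 rose and 0 fell with anti-LIF (edgeR, adjusted p under 0.05), beside 15.7% and 16.5% of all tested genes. Their median log2 fold change was 1.47, beside -0.0063 for all tested genes. Scaled to the pan-myeloid list, 12 were higher and 6 lower, beside 231 and 11529 of all 14711 tested genes. Fcrls, an Fc receptor-like gene of resident macrophages and microglia, had 334, 124, 348 and 117 CPM in the anti-LIF libraries, against 11.7, 3.02, 7.70 and 5.13 CPM in the IgG libraries (log2 fold change 5.07 ± 0.56 (SE), adjusted p 0.00262). Its size of change was near that of Cd209f and Cd209g. Folr2 (3.57 ± 0.67, adjusted p 0.00671), the folate receptor of resident macrophages, Lyve1 (2.90 ± 0.57, adjusted p 0.00795), Timd4 (2.70 ± 0.40, adjusted p 0.00410), a receptor for phosphatidylserine on dying cells, and Stab1 (2.47 ± 0.29, adjusted p 0.00284), a scavenger receptor, also rose. Cd163 was at 641 ± 213 CPM with anti-LIF and 353 ± 136 CPM with IgG (0.86 ± 0.32, adjusted p 0.0654), and Mrc1, the mannose receptor CD206, was at 3199 CPM with anti-LIF and 2261 CPM with IgG (0.50, adjusted p 0.143), so neither passed. Cd163 passed without KPCL-PCC_345_G (1.12, adjusted p 0.0332) or KPCL-PCC_310_GA (1.04, adjusted p 0.0372). All 4 defining markers of the list (Lyve1, Timd4, Folr2 and Cd163) were detected in every library.

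Monocyte and monocyte-derived dendritic cell genes, among which Cd209a is usually placed, moved less evenly. Of 26 tested genes outside the family 10 rose and 1 fell, beside 15.7% higher and 16.5% lower of all tested genes. Their median log2 fold change was 0.75. Scaled to the pan-myeloid list, 5 were higher and 8 lower, beside 231 and 11529 of all 14711 tested genes. Ccr2, the chemokine receptor that brings monocytes into tissue, had 481 ± 155 CPM with anti-LIF and 114 ± 30.7 CPM with IgG (log2 fold change 2.08 ± 0.28, adjusted p 0.00342). Mgl2, the galactose-type lectin CD301b, had 240, 266, 564 and 283 CPM in the anti-LIF libraries, against 97.7, 20.8, 55.9 and 48.4 CPM in the IgG libraries (2.60 ± 0.46, adjusted p 0.00581). KPCL-PCC_354_GA, the library highest in Cd209a, was also the highest in Mgl2. Plbd1 (1.69 ± 0.19, adjusted p 0.00262) and Fcgr1, the high-affinity IgG receptor (1.24 ± 0.19, adjusted p 0.0044), rose as well.

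Conventional dendritic cell genes gave no common direction. Of 16 tested genes outside the family, 3 rose and 3 fell, beside 15.7% higher and 16.5% lower of all tested genes. Their median log2 fold change was 0.23. Scaled to the pan-myeloid list, 0 were higher and 8 lower, beside 231 and 11529 of all 14711 tested genes. Zbtb46, a transcription factor that defines these cells, was at 5.49 ± 1.39 CPM with anti-LIF and 3.89 ± 1.29 CPM with IgG (0.50 ± 0.27, adjusted p 0.183), and Flt3, their growth factor receptor, was at 1.78 ± 0.298 CPM with anti-LIF and 2.43 ± 2.28 CPM with IgG (-0.44 ± 0.60, adjusted p 0.600). Both defining markers were thus low in both arms and neither passed, except Zbtb46 without KPCL-PCC_203_G (0.75, adjusted p 0.0483). Without KPCL-PCC_343_G, 1 gene of the list was lower. Batf3, a factor of cross-presenting dendritic cells, rose (1.99 ± 0.45, adjusted p 0.0124) and was highest in KPCL-PCC_354_GA at 13.8 CPM.

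Genes of lymphoid-organ macrophages, the cells in which Cd209b is best known, came next. Of 14 tested genes, 3 rose and 1 fell, beside 15.7% higher and 16.5% lower of all tested genes. Their median was 0.43. Scaled to the pan-myeloid list, 0 were higher and 6 lower, beside 231 and 11529 of all 14711 tested genes. Siglec1, the sialic acid receptor CD169 of marginal zone and subcapsular macrophages, rose (585 ± 356 CPM with anti-LIF and 206 ± 14.6 CPM with IgG, log2 fold change 1.51 ± 0.35, adjusted p 0.0139). Cd5l, a secreted macrophage scavenger protein (0.88 ± 0.24, adjusted p 0.0233), and Hmox1, the haem-degrading enzyme (0.76, adjusted p 0.0296), rose too, but Cd5l lost its call without KPCL-PCC_393_G, KPCL-PCC_354_GA or KPCL-PCC_391_GA and Hmox1 without KPCL-PCC_203_G, KPCL-PCC_343_G, KPCL-PCC_393_G, KPCL-PCC_227_GA or KPCL-PCC_354_GA (adjusted p 0.0523 to 0.0748). Marco, a scavenger receptor of marginal zone macrophages, was at 275 CPM with anti-LIF and 184 CPM with IgG (0.58, adjusted p 0.423). Spic, the factor of splenic red pulp macrophages, fell to 2.89 ± 0.355 CPM in anti-LIF libraries, against 6.23 ± 2.75 CPM in IgG libraries (-1.11 ± 0.32, adjusted p 0.0285). The Spic call was lost without KPCL-PCC_343_G, KPCL-PCC_345_G, KPCL-PCC_310_GA, KPCL-PCC_354_GA or KPCL-PCC_391_GA, at adjusted p 0.0556 to 0.0769. Of the list, 1 gene was higher and 1 lower without KPCL-PCC_393_G, 2 were higher and 2 lower without KPCL-PCC_227_GA, and 5 were higher and 2 lower with DESeq2.

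Other C-type lectins were mixed in direction. Of 26 tested, 8 rose and 3 fell, beside 15.7% higher and 16.5% lower of all tested genes. Their median log2 fold change was 0.35. Scaled to the pan-myeloid list, 2 were higher and 13 lower, beside 231 and 11529 of all 14711 tested genes. The dectin-2 gene Clec4n, a receptor for fungal mannans, rose 2.42-fold (640 ± 107 CPM with anti-LIF and 264 ± 35.5 CPM with IgG, adjusted p 0.00284), as did Clec4a3 (1.26 ± 0.25 on the log2 scale, adjusted p 0.00823). Clec10a, the lectin CD301a, was at 328 CPM with anti-LIF and 177 CPM with IgG (0.89, adjusted p 0.189), and the dectin-1 gene Clec7a was at 514 CPM with anti-LIF and 468 CPM with IgG (0.13, adjusted p 0.724). Without KPCL-PCC_343_G 5 of these lectins were higher and 1 lower, and without KPCL-PCC_393_G 4 were higher and 2 lower.

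**Figure D5:**
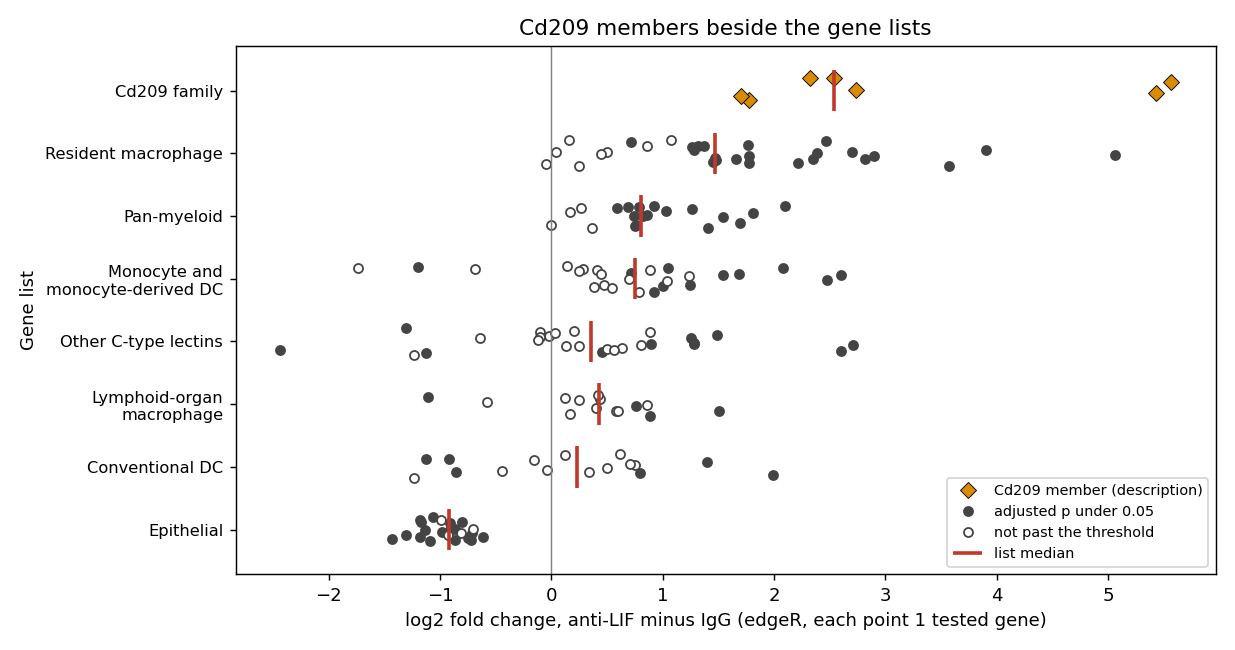
Log2 fold change (anti-LIF minus IgG, x axis) of the 7 Cd209 members (diamonds, a description) and of the tested genes of 7 lists (filled: edgeR adjusted p under 0.05; open: not past it), 1 row per list (y axis), with each list's median as a red line; DC stands for dendritic cells. The resident macrophage median is 1.47, the epithelial median is -0.92, and Cd209f and Cd209g lie at 5.43 and 5.57.

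The genes that flank the cluster were measured for comparison with the members. On the Cd209a side lie Clec4g, the sinusoidal endothelial lectin LSECtin, and beyond it Fcer2a, the low-affinity IgE receptor CD23. Fcer2a rose with anti-LIF (5.87, 7.01, 4.94 and 5.51 CPM in the anti-LIF libraries, against 1.78, 0.439, 0.810 and 0.540 CPM in the IgG libraries; log2 fold change 2.71 ± 0.40, adjusted p 0.00418). It is a B-cell gene, and 4 of the 11 tested genes of the B-cell list, Fcer2a among them, rose and 0 fell. Across all tested genes 15.7% were higher and 16.5% lower. Clec4g was too low to be tested, with 8, 0, 2 and 5 counts in the anti-LIF libraries, against 39, 0, 1 and 0 counts in the IgG libraries. On the Cd209g side, Evi5l did not pass (20.7 ± 4.37 CPM with anti-LIF and 18.3 ± 1.24 CPM with IgG, 0.18 ± 0.15, adjusted p 0.388) and Prr36 fell (2.59 ± 0.670 CPM with anti-LIF and 6.92 ± 2.96 CPM with IgG, -1.41 ± 0.32, adjusted p 0.0123). The noncoding RNA gene Rprl3, the only other gene of the count table between members, had 0 counts in all 8 libraries. Of the 3 tested neighbours, 1 was thus higher, 1 lower and 1 not past the threshold.

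KPCL-PCC_203_G, the IgG library with the most Cd209a to Cd209e counts, also held 77 counts of Clec4f, the Kupffer cell lectin, and 39 of Clec4g, where the other 7 libraries held 0 counts of Clec4f and 0 to 8 of Clec4g; Clec4f was chosen after its values were seen. The part of these transcripts in the Cd209 values was not tested. Without that library the log2 ratio of the summed family was 3.37, beside 2.98 with it.

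Genes for known ligands of these lectins and for the signalling that follows binding did not move in 1 direction. Of 29 tested genes, 7 rose and 5 fell, beside 15.7% higher and 16.5% lower of all tested genes. Their median log2 fold change was 0.16. Scaled to the pan-myeloid list, 1 was higher and 20 were lower, beside 231 and 11529 of all 14711 tested genes. Il10, a cytokine that human DC-SIGN signalling is known to increase, rose to 11.9 ± 3.59 CPM in anti-LIF libraries, against 1.46 ± 0.401 CPM in IgG libraries (3.01 ± 0.30, adjusted p 0.00227). Icam2, a counter-receptor of human DC-SIGN on endothelium, also rose (1.79 ± 0.30, adjusted p 0.00502). Cnksr1, a scaffold protein of the signalling complex described at human DC-SIGN, fell (8.05 ± 2.16 CPM with anti-LIF and 18.2 ± 0.715 CPM with IgG, -1.18 ± 0.20, adjusted p 0.00494). Without KPCL-PCC_343_G the list gave 3 higher and 3 lower, it gave 3 higher without KPCL-PCC_393_G and 4 higher without KPCL-PCC_203_G, and 3 were lower without KPCL-PCC_345_G, KPCL-PCC_310_GA, KPCL-PCC_354_GA or KPCL-PCC_391_GA.

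Genes for factors known to act on these lectins or on macrophage maturation were more often higher than lower with TMM scaling. Of 20 tested, 10 rose and 1 fell, beside 15.7% higher and 16.5% lower of all tested genes. Their median was 0.52. Scaled to the pan-myeloid list, 2 were higher and 10 lower, beside 231 and 11529 of all 14711 tested genes. IL-4 is known to induce DC-SIGN on human monocyte-derived cells. Il2rg, the receptor chain shared by IL-4 and other cytokines, rose (129 ± 20.7 CPM with anti-LIF and 35.98 ± 9.55 CPM with IgG, 1.84 ± 0.21, adjusted p 0.00278), whereas Il4 and Il13 themselves were too low to be tested. Pparg, a lipid-activated nuclear receptor of alternatively activated macrophages that epithelial cells also express, fell (11.3 CPM with anti-LIF and 44.5 CPM with IgG, -1.97, adjusted p 0.00583). Stat3, which acts below the LIF receptor, did not pass (-0.06, adjusted p 0.651), nor did the receptor chain gene Il6st (-0.02, adjusted p 0.847). In the same list Lifr, the gene of the LIF receptor, rose (1.30, adjusted p 0.00663), and so did Lif itself (0.64, adjusted p 0.00964).

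Epithelial genes ran in the opposite direction to the Cd209 genes. Of 22 tested epithelial genes, 0 rose and 18 fell, with a median of -0.92, and Krt19, a duct keratin, had 281 ± 50.9 CPM with anti-LIF and 637 ± 49.2 CPM with IgG (-1.18 ± 0.14, adjusted p 0.00284); scaled to the epithelial list itself, Epcam and Cdh1 changed sign (0.10 and 0.15). The pancreatic acinar list had 17 of 21 tested genes higher and 0 lower, with a summed level of 3350 to 19142 CPM with anti-LIF and 374 to 2164 CPM with IgG. The T and NK cell list had 4 of 10 higher and 0 lower, the granulocyte and mast cell list 1 of 7 higher and 0 lower, and the fibroblast list 1 of 14 higher and 0 lower. Endothelial and lymphatic genes gave 3 of 15 higher and 2 lower, mesothelial and peritoneal macrophage genes 3 of 12 higher and 1 lower, and housekeeping genes 4 of 14 higher and 0 lower. The shares over all tested genes, to be read beside these counts, were 15.7% higher and 16.5% lower. Defining markers of T cells (Cd3e, 0.494 to 1.94 CPM with anti-LIF and 0.275 to 0.703 CPM with IgG) and of endothelium (Cdh5, 1.85 to 4.14 CPM with anti-LIF and 2.20 to 4.19 CPM with IgG) were close to 0, and neither passed (adjusted p 0.051 and 0.803), except Cd3e without KPCL-PCC_354_GA (1.58, adjusted p 0.0267). The part of these marker shifts in the Cd209 values was not tested beyond the scalings given above.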

How the data were processed

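RNA-seq libraries of EpCAM+ cells from 8 tumours were analysed, 4 per arm; the labels say that tumours were dissected individually, so a library stands for 1 mouse. Per the submitters' processing notes, the authors used FastQC 0.11.2, STAR 2.4.0k, HOMER and edgeR 3.6.8 with mm10. Per the file headers, the deposited raw counts are HOMER exon counts condensed to 1 transcript per gene, with library totals of 18954525 to 24681702. The deposited FPKM values equal the authors' counts divided by transcript length and library total, within 0.002 FPKM for 100% of values of 21000 shared transcripts; Cd209b is listed there by another transcript (1948 in place of 2037 bases). Neither read length nor the strand setting is stated in the sources used. There were 0 unused sample columns.

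Counts were tested in R 4.3.3 with edgeR 4.0.16 (filterByExpr, TMM, quasi-likelihood test, Benjamini-Hochberg threshold 0.05); CPM are TMM-scaled, and log2 CPM used a prior count of 2. A positive log2 fold change means higher with anti-LIF. The test was checked on simulated data. The members and the 18 gene lists were chosen with earlier results of these data known. Named genes are the 7 members, the 4 genes with the lowest p of each of 4 macrophage, monocyte and lectin lists, the 2 with the lowest p of every other list, 5 by likeness (1 of them not reported here), the flanking genes and defining markers; any other gene was chosen after its value was seen. Alternatives were other scalings, DESeq2 1.42.0, limma 3.58.1 (voom; trend on FPKM, log2 after adding 1 or 0.1), other filters and each library left out. A planned comparison of the protein sequences was not run. Identities are from local alignments, and promoter sequences from RefSeq (7 of 7 members matched).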

Additional observations from a re-analysis of the deposited data

Results flagged for a closer look

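In 12 of 128 groups of 4 libraries, 1 library lay further from the other 3 than Dixon's 95% critical value for 4 samples allows for the gap over the range; chance flags about 5% of groups. Of the Cd209 genes this held for Cd209b, at 67.8 CPM in KPCL-PCC_227_GA beside 29.6 to 35.7 CPM in the other anti-LIF libraries.

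The same library was also the highest of its arm in Stab1 (2927 CPM, others 1487 to 1724), Eng, an endothelial and macrophage TGF-beta co-receptor (133 CPM, others 75.5 to 82.4), and Evi5l (27.2 CPM, others 18.2 to 19.2). It was the lowest of its arm in Epcam (194 CPM, others 326 to 353) and Flt3 (1.34 CPM, others 1.88 to 1.98). KPCL-PCC_354_GA was highest in Mgl2 (564 CPM, others 240 to 283) and Batf3 (13.8 CPM, others 3.87 to 5.49). Among IgG libraries, KPCL-PCC_203_G was highest in Clec4g (2.24 CPM, others 0 to 0.0506), KPCL-PCC_345_G in Adgre1, the F4/80 gene (186 CPM, others 146 to 152), KPCL-PCC_343_G in Esrp1, an epithelial splicing factor (130 CPM, others 104 to 107), and KPCL-PCC_393_G in Cnksr1 (19.3 CPM, others 17.8 to 18.0).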

How the results depend on the processing

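All 7 members kept a positive log2 fold change in each of 19 alternatives. They were chosen for this difference in the same libraries, so the ranges are a description. The lowest values were those of Cd209e (0.63) and Cd209c (0.72) with pan-myeloid scaling, and neither gene passed the threshold there. The members' median was 1.46 with pan-myeloid and 3.73 with epithelial scaling, and 2.19 to 2.84 with 1 library left out. The log2 ratio of the summed family was 1.92, 4.19 and, in an alternative added after seeing the data, 1.71 when scaled to the pan-myeloid, epithelial and resident macrophage lists, and 2.63 to 3.37 with 1 library left out. Genes called higher and lower numbered 231 and 11529 with pan-myeloid scaling and 11360 and 155 with epithelial scaling, which moved the median of all genes by -0.96 and 1.07; 1430 were higher and 3567 lower with library totals, 1535 and 3344 with log2 FPKM (pseudocount 0.1), and 1467 to 2218 higher and 1507 to 2136 lower with 1 library left out, lowest without KPCL-PCC_343_G; 1521 were lower without KPCL-PCC_354_GA. The cause of these shifts was not tested. With pan-myeloid scaling the sign reversed for Cd5l (-0.076), Hmox1 (-0.22), Irf8 (-0.21), Foxp3 (-0.38), Evi5l (-0.83) and Ptprc (-0.089), and with epithelial scaling for Epcam (0.10), Cdh1 (0.15) and Cdh5 (0.88). Of these reversed values only those of Evi5l and Cdh5 passed (edgeR adjusted p 0.00198 and 0.0131), and the others had adjusted p of 0.117 to 0.811. Ptprc, Epcam and Cdh1 belong to the list used as the scale, which draws their values towards 0. Of the values of single genes under an alternative, 1123 kept direction and call, 38 lost the call, 26 gained it and 9 reversed. With library totals 4 ligand and signalling genes were higher (7 with TMM) and 2 regulator genes lower (1 with TMM). No paired analysis was possible because the arms share no replicate number. Depth limits Cd209g most, at 2 to 15 counts per IgG library.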
